A study of Homo sapiens with 18 samples.

Results

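The genes described here encode the protein subunits of the mitochondrial ribosome. They were taken as every row of the gene tables whose Entrez ID maps to a symbol made of MRPL or MRPS and a number, with an ending A, B or C allowed and pseudogenes left out. This gave 77 of 25343 genes, 49 with an MRPL and 28 with an MRPS symbol. All 77 passed the filter on low counts, which kept 14074 genes for testing.

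The tumours were xenografts, grown in mice, of a PTDSS2 knockout of HCT116, a long-established line of human colon cancer cells. The knockout is shared by every group, so no group carries an intact PTDSS2 for comparison. The control group was dosed by mouth with the methylcellulose vehicle, and the treated groups received DS55980254 at 10 mg/kg or 30 mg/kg in it. The series concerns an inhibitor of PTDSS1, which with PTDSS2 makes phosphatidylserine. Tumours were taken 24 hours later, with 6 libraries per group and 18 in all. The age and strain of the mice and the number of clones behind the line are not stated in the labels. Nor do they say that the 6 tumours of a group grew in different animals, and p-values here measure only the spread between samples, which may be technical.

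Mitochondria hold their own ribosome, which translates the few messages of mitochondrial DNA into core subunits of the respiratory chain. Its ribosomal RNA is made in the organelle, while its proteins are encoded in the nucleus, made in the cytosol and imported. MRPL proteins build mainly the large subunit, which joins amino acids, and MRPS proteins mainly the small subunit, which reads the message. Some belong to families shared with bacterial ribosomes and others are found in mitochondria alone. Phosphatidylserine is also the precursor from which mitochondria make phosphatidylethanolamine, a major lipid of their inner membrane.

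Counts per library ran from 3435423 to 8538792 in 17 libraries and were 433981 in 10 mg/kg replicate 2, where the 77 genes together held 1234 counts, against 10369 to 25811 in the others. The epithelial markers EPCAM (311 to 493 CPM, counts scaled to the library's size) and KRT8 (1288 to 3270 CPM) were high in every library. The intestinal markers VIL1, CDH17, LGALS4 and CEACAM5 averaged at most 0.396 CPM with vehicle, and CDX1 had no count there, while CDX2 averaged 12.3 CPM and KRT20 1.19 CPM. Of 12 epithelial markers 6 passed the filter, and their summed level was 5203 to 6874 CPM with vehicle, 4015 to 7255 CPM at 10 mg/kg and 5520 to 6971 CPM at 30 mg/kg. In 10 mg/kg replicate 2 the summed fibroblast markers stood at 317 CPM, against 61.9 to 109 CPM with vehicle. The sums there were 105 CPM for endothelial, 64.2 CPM for leukocyte, 57.8 CPM for muscle and 10.7 CPM for erythroid markers. With vehicle they were at most 11.3, 17.5, 4.75 and 0.941 CPM. A gene with 1 count stood at 2.14 CPM in that library, and no muscle or erythroid marker passed the filter. Among fibroblast markers, only COL1A1 exceeded 17.11 CPM in any library. That library had counts for 19680 genes, against 17187 to 19045 with vehicle and up to 21578 in other treated libraries. Whether these sums reflect other cell types was not tested. PTDSS2 still had counts, at 4.97 to 12.03 CPM with vehicle, 7.11 to 13.9 CPM at 10 mg/kg and 5.33 to 13.4 CPM at 30 mg/kg.

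The promoter sequences of the genes with the highest and lowest levels are shown first, because the levels below span a wide range. Of the 77 genes, 69 matched a promoter in RefSeq (assembly GRCh38.p14), taken as 250 bases before to 50 after the annotated start. The 250 bases before the start of MRPL12, MRPS23 and MRPL51, the 3 most abundant transcripts with vehicle, and of MRPS14 and MRPL22, the 2 least abundant, read 5′ to 3′ on the gene's strand. Capitals mark matches to the ETS family core CCGGAAG or the NRF1 core GCGCATGC on either strand.
MRPL12, chr17:81703117-81703366 (plus strand): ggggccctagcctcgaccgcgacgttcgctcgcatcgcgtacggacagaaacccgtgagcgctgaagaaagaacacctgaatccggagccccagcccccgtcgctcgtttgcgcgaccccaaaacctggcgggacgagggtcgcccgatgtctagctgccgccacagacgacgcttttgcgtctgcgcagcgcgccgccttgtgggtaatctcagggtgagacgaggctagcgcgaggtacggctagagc
MRPS23, chr17:57850045-57850294 (minus strand): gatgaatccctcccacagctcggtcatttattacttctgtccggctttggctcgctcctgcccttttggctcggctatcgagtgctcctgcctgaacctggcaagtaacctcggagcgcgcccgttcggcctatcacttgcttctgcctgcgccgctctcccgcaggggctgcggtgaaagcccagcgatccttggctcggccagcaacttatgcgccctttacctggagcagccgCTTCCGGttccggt
MRPL51, chr12:6493263-6493512 (minus strand): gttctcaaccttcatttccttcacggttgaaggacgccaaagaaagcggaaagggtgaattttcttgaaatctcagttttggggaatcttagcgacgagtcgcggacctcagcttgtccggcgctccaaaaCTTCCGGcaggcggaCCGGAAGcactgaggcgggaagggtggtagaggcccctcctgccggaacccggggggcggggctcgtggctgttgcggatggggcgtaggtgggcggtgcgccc
MRPS14, chr1:175023426-175023675 (minus strand): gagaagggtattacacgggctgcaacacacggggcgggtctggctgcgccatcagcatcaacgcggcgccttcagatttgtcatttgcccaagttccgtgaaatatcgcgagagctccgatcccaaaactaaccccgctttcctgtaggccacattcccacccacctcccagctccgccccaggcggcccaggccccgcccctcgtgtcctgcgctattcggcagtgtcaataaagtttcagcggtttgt
MRPL22, chr5:154940823-154941072 (plus strand): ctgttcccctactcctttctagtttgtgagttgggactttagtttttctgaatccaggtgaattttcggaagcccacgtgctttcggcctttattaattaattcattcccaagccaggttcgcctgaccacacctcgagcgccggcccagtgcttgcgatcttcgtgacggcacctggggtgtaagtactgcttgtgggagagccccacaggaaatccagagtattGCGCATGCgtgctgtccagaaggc

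Neither core was found in the 250 bases printed for MRPL12, the highest of all, or for MRPS14. MRPS23 has 1 ETS core match close to the start, MRPL51 has 2 such matches on opposite strands, and MRPL22 has 1 NRF1 match. Over the 300 bases, 29 of 69 genes (42.0%) held the ETS core on either strand, against 14.2% of 15843 protein-coding promoters and 10.7% of all 27305 promoters in the table. The NRF1 core was in 6 genes (8.70%), against 4.26% of protein-coding promoters. A match is a run of letters and not a measured binding site.

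The YY1 core AAGATGGC was in 20 of 69 genes (29.0%), against 3.91% of protein-coding promoters and 3.03% of all promoters. The core holds the letters ATG, and whether it overlaps the start of the coding sequence was not tested. On the gene's own strand 16 genes had it, and in 15 of the 16 it began after the start. The 6 most abundant transcripts with such a match are shown to compare its surroundings, as 30 bases each with the core in capitals.
MRPL51, chr12:6493223-6493252 (minus strand): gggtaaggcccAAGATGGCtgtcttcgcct
MRPL20, chr1:1407260-1407289 (minus strand): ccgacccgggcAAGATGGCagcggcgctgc
MRPL38, chr17:75904860-75904889 (minus strand): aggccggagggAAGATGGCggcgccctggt
MRPS18B, chr6:30617852-30617881 (plus strand): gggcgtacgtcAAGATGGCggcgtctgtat
MRPS7, chr17:75261887-75261916 (plus strand): cgtggccagccAAGATGGCtgcccccgcag
MRPS30, chr5:44808949-44808978 (plus strand): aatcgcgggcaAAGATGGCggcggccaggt

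The core began 7 to 24 bases into the transcript in these 6 genes, of both subunits. At least 1 of the ETS, NRF1 and YY1 cores was in 42 of 69 genes (60.9%), against 20.3% of protein-coding promoters. Other motifs were near the share of protein-coding promoters or below it, on both strands. The GC box GGGCGG was in 60.9% of the genes against 58.5%, the E-box CACGTG in 8.70% against 8.88%, CCAAT in 29.0% against 36.4% and TATAAA in 2.90% against 9.63%. Median GC content was 60.3% for the genes and 62.7% for protein-coding promoters.

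Of the 69 genes, 18 (26.1%) had the start of another protein-coding gene on the opposite strand, head to head within 1000 bases, against 10.3% of protein-coding genes. The neighbours included FAU, which encodes a cytoplasmic ribosomal protein, beside MRPL49, and SARS2, the mitochondrial seryl-tRNA synthetase, beside MRPS12. In 1 such pair both genes belong to the mitochondrial ribosome: MRPL46 of the large subunit and MRPS11 of the small subunit start 320 bases apart. MRPL46 stood at 19.1 to 35.5 CPM with vehicle, 12.8 to 27.5 CPM at 10 mg/kg and 20.03 to 40.3 CPM at 30 mg/kg. MRPS11 stood at 14.01 to 16.3 CPM with vehicle, 6.42 to 18.9 CPM at 10 mg/kg and 12.4 to 17.98 CPM at 30 mg/kg. Both genes were lowest in 10 mg/kg replicate 2, and neither differed between groups by the test below.

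Levels are compared between genes in TPM, the deposited abundance scaled for transcript length. With vehicle the 77 genes had a median of 60.0 TPM, against 21.1 TPM for all genes tested. The highest mean was 30.1 times the lowest, and 71 genes lay between 20 and 200 TPM. The median was 56.3 TPM for MRPL and 61.6 TPM for MRPS symbols. Transcripts of these genes were short, with a median length of 1161 bases against 2908 for all genes tested.

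MRPL12, the stalk protein that recruits translation factors to the large subunit, had the highest level. Its lowest, median and highest values were 223, 299 and 378 TPM with vehicle, 239, 271 and 291 TPM at 10 mg/kg, and 196, 298 and 408 TPM at 30 mg/kg. The 3 groups overlap throughout, and the 30 mg/kg libraries fall on both sides of the others. MRPS23, a small-subunit protein found in mitochondria alone, followed at 190, 253 and 257 TPM with vehicle, 58.9, 222 and 254 TPM at 10 mg/kg, and 182, 256 and 296 TPM at 30 mg/kg. Its low value at 10 mg/kg is replicate 2. With vehicle, MRPL12 averaged 292 ± 55.4 TPM and MRPS23 234 ± 33.0 TPM (SD, n = 6), ranges that overlap.

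The next 3 were mitochondria-specific proteins. With vehicle MRPL51 averaged 180 ± 27.0 TPM, MRPS34 173 ± 11.98 TPM and MRPL43 149 ± 8.80 TPM (SD, n = 6 each). Neighbours in this order differ by no more than the sum of their SDs, except MRPS34 and MRPL43, whose ranges of 160 to 186 and 139 to 161 TPM still overlap.

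The 5 lowest were MRPL22, MRPS14, MRPL19, MRPL30 and MRPS24. MRPL22, which lines the exit tunnel for the growing chain, had 8.45, 9.90 and 11.3 TPM with vehicle, 4.52, 8.47 and 11.7 TPM at 10 mg/kg, and 9.27, 11.2 and 15.5 TPM at 30 mg/kg. MRPS14, a protein of the small subunit's head, had 11.04, 15.04 and 20.1 TPM with vehicle, 5.20, 14.4 and 16.5 TPM at 10 mg/kg, and 10.8, 14.9 and 20.02 TPM at 30 mg/kg. MRPL19 and MRPL30, both large-subunit proteins of families shared with bacteria, averaged 16.3 ± 1.31 and 17.7 ± 2.78 TPM with vehicle (SD, n = 6 each), with transcript models of 7827 and 4525 bases. All of these ranges overlap between the groups.

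**Figure D1:**
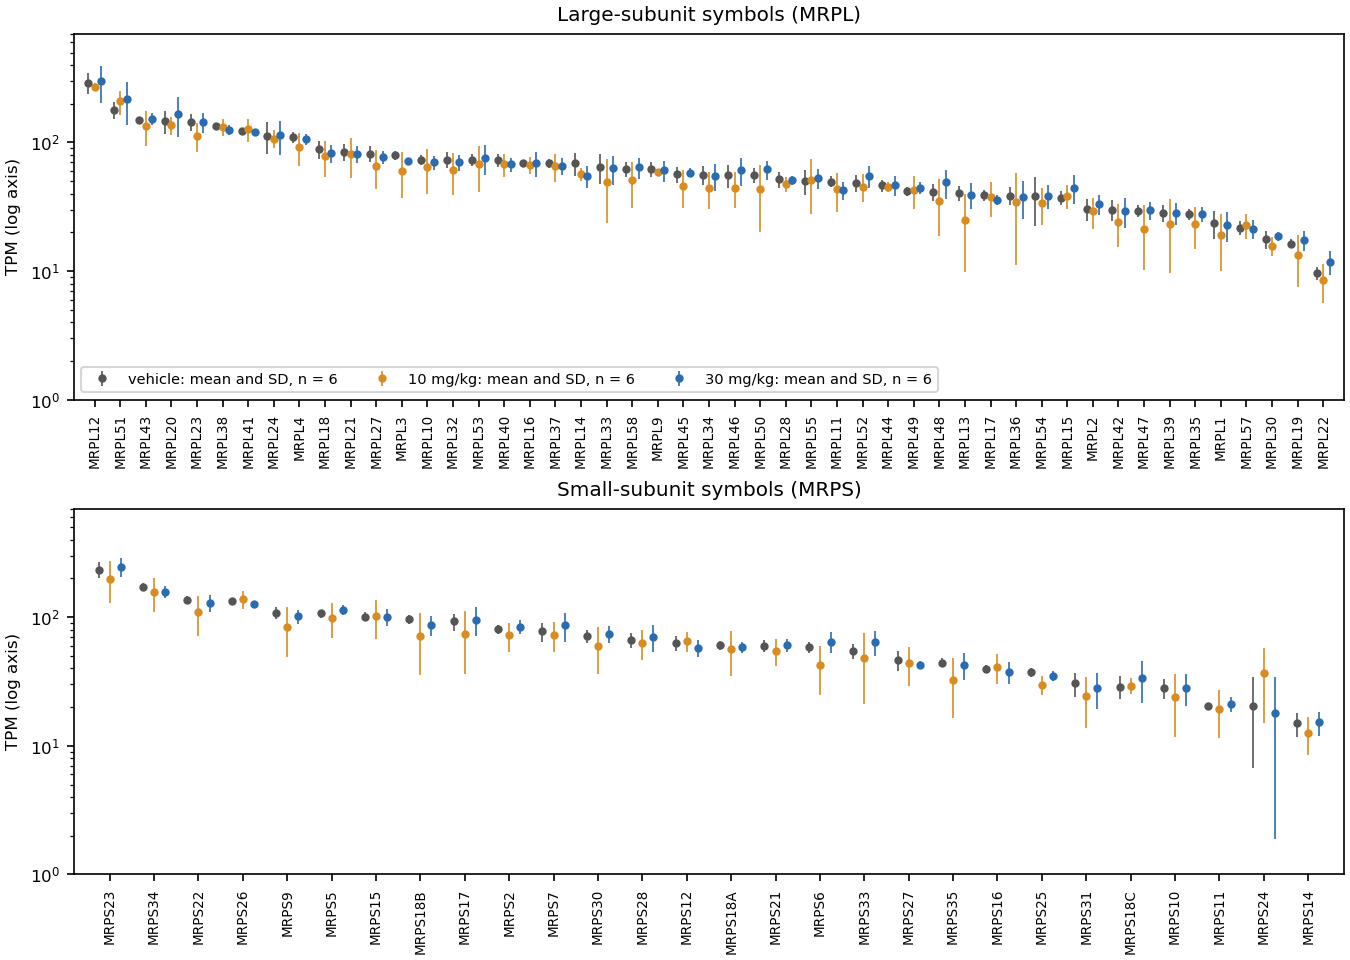
Level of each of the 77 genes in TPM on a log axis, ordered by the vehicle mean, with MRPL symbols above and MRPS symbols below. Points are group means and bars the SD over 6 libraries; MRPL12 is highest at 292 TPM with vehicle, MRPL22 is lowest at 9.72 TPM, and MRPS24 has the widest bars for its level.

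The genes of the MRPS18 family differed in level. These related proteins take different places: MRPS18A sits in the large subunit despite its name, and MRPS18B and MRPS18C in the small one. With vehicle, MRPS18B averaged 96.3 ± 7.72 TPM, MRPS18A 60.4 ± 4.99 TPM and MRPS18C 28.8 ± 5.87 TPM (SD, n = 6 each), and the ranges of 84.3 to 105, 55.0 to 69.0 and 22.3 to 39.1 TPM do not overlap. At 30 mg/kg the ranges were 69.2 to 108 TPM for MRPS18B, 54.5 to 66.3 TPM for MRPS18A and 21.1 to 48.7 TPM for MRPS18C. The order was thus kept at 30 mg/kg, without overlap. At 10 mg/kg MRPS18B spanned 5.53 to 114 TPM and overlapped both others, its low value again being replicate 2.

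MRPS24, a small-subunit protein of the family that bacteria also have, needs its own account because a readthrough gene, URGCP-MRPS24, shares its sequence. MRPS24 had no count in vehicle replicate 5, 10 mg/kg replicate 4 and 30 mg/kg replicate 2, while the readthrough gene had none in 10 mg/kg replicates 2 and 6. The sum of both was 13.7 to 22.6 CPM with vehicle, 16.4 to 30.0 CPM at 10 mg/kg and 13.1 to 24.4 CPM at 30 mg/kg. Every library thus has counts of the pair, and in each group the sum varied less than MRPS24 alone.

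**Figure D2:**
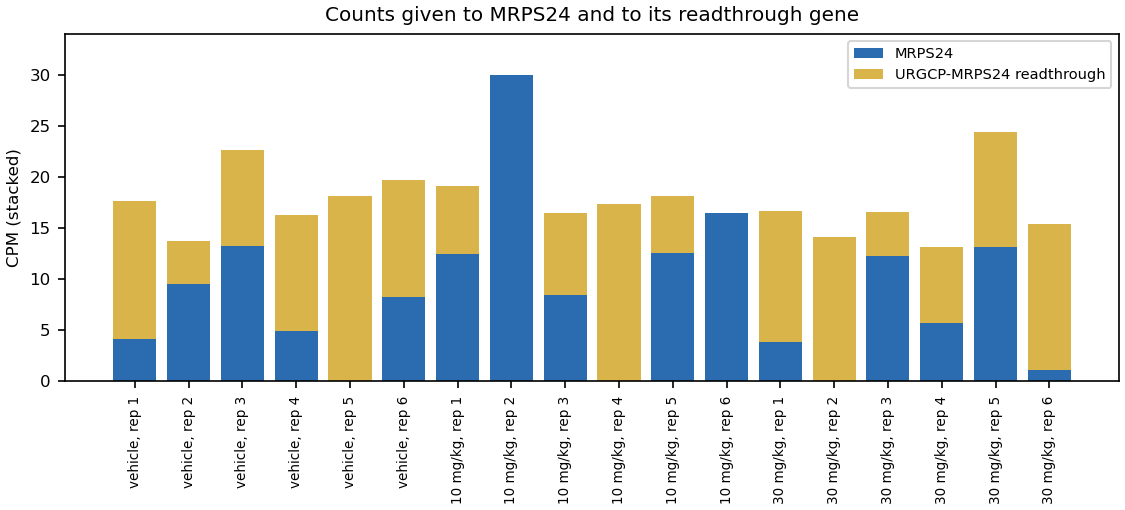
CPM assigned to MRPS24 (blue) and to the readthrough gene URGCP-MRPS24 (yellow), stacked, in each of the 18 libraries. The split between the genes varies from all of one to all of the other, while their sum stays between 13.1 and 30.0 CPM.

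The pair averaged 17.99 ± 3.01 CPM with vehicle, 19.6 ± 5.18 CPM at 10 mg/kg and, in the 30 mg/kg group, 16.7 ± 4.01 CPM (SD, n = 6 each). MRPS24 alone averaged 6.64 ± 4.63, 13.3 ± 9.89 and 5.98 ± 5.56 CPM, so values for MRPS24 alone are uncertain. In all, 13 of the 77 genes had a count that was not whole in some library, as happens when reads are divided between features, and 11 had one in at least 9 libraries. MRPL45 is among the 11, and its pseudogene MRPL45P2 was counted as a gene of its own at 4.55 to 58.5 counts per library, so the level of MRPL45 is uncertain. MRPL43, MRPS25, MRPS18C, MRPS6 and MRPL20, given with values in this report, are also among the 11, in 18, 17, 16, 15 and 11 libraries. How many of their reads were divided is not known here.

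The question put to each dose was whether transcripts of the mitochondrial ribosome differed from vehicle a day after dosing. At 10 mg/kg, 0 of 77 genes passed by edgeR's quasi-likelihood test (adjusted p under 0.05 over all genes), against 0.469% of all genes tested. Without adjustment 3 of 77 had p under 0.05, against 9.5% of all genes, but 9 of 77 had it without 10 mg/kg replicate 5 and 5 of 77 without the filter, with 0 past the adjusted threshold in both. DESeq2 and limma-voom also called 0, with 3 and 4 genes at an unadjusted p under 0.05. The median log2 fold change was -0.08, against -0.01 for all genes tested, and 53 of 77 genes were below 0, against 51.2% of all genes. That median was below 0 under every scaling tried, and was -0.05 without 10 mg/kg replicate 2, with 51 of 77 below 0. It was -0.05 without 10 mg/kg replicate 1 and -0.03 without vehicle replicate 3, with 43 of 77 below 0 in the last.

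At 30 mg/kg, 0 of 77 genes passed either, against 0.618% of all genes, and 0 had an unadjusted p under 0.05, against 7.9%. DESeq2 and limma-voom likewise called 0, with 0 at an unadjusted p under 0.05. The median log2 fold change was 0.02, with 35 of 77 below 0, against 50.2% of all genes, but it was -0.01 when scaled by library totals, -0.02 on the TPM scale and -0.04 without 30 mg/kg replicate 5. No direction can thus be given for the group at this dose.

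Between the doses, 0 of 77 genes passed by edgeR and by DESeq2 and limma-voom, against 0.0% of all genes. By edgeR 4 genes had an unadjusted p under 0.05, against 3.52% of all genes; DESeq2 gave 5 and limma-voom 2. Without 10 mg/kg replicate 5 the number by edgeR was 10, and without the filter 7, again with 0 past the adjusted threshold. The median log2 fold change of 30 mg/kg over 10 mg/kg was 0.14, against 0.00 for all genes, with 57 of 77 above 0 and 20 below, against 49.1% of all genes below. It stayed above 0 under every scaling tried, and was 0.10 without 10 mg/kg replicate 2 and 0.09 without 30 mg/kg replicate 5. This comparison shares the 10 mg/kg libraries with the first, so the 2 are not independent. In bulk tumour RNA, fewer cells of a type and less RNA per cell cannot be told apart.

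The precision sets how much of a difference could be hidden. The 95% interval of the fitted fold change lay within 1.5-fold either way for 59 of 77 genes at 10 mg/kg and 67 of 77 at 30 mg/kg. At 10 mg/kg it reached a 1.5-fold decrease for 16 genes and a 1.5-fold increase for 4. For 30 mg/kg the numbers were 3 and 8. The median SE was 0.17 and 0.16 on the log2 scale, the same to 2 decimals as the 0.17 and 0.16 of all genes tested.

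**Figure D3:**
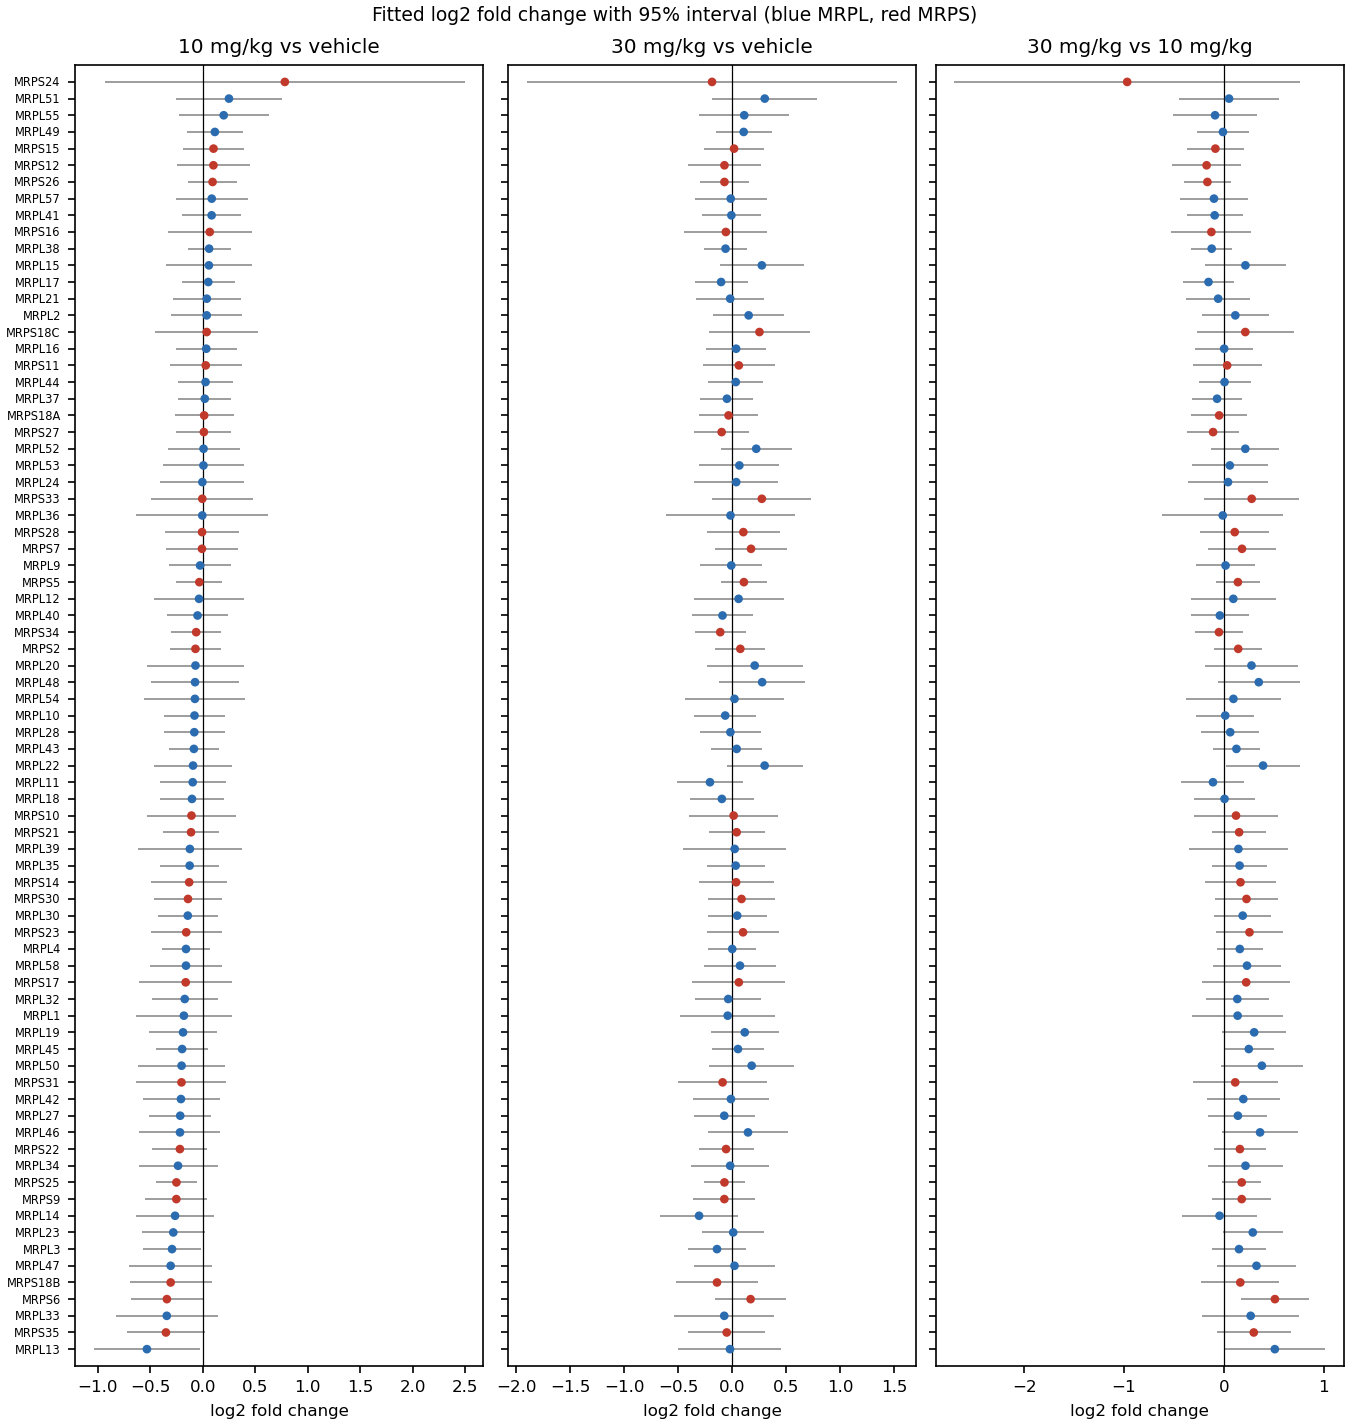
Fitted log2 fold change of each of the 77 genes with its 95% interval, for 10 mg/kg against vehicle, 30 mg/kg against vehicle and 30 mg/kg against 10 mg/kg, in the order of the first. Blue points are MRPL and red points MRPS symbols, and the vertical line marks 0; medians were -0.08, 0.02 and 0.14 and no gene passed, the sign of the middle one changing with library totals or TPM.

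The genes with the smallest p at 10 mg/kg came from both subunits. MRPS25, a mitochondria-specific protein of the small subunit, was at 73.1, 85.0 and 94.1 CPM (lowest, median, highest) with vehicle and 60.8, 74.0 and 76.7 CPM at 10 mg/kg. The groups overlap, with 2 treated libraries below all vehicle libraries. Its log2 fold change was -0.25 (SE 0.10, edgeR adjusted p = 0.379), and -0.26 without 10 mg/kg replicate 2 (adjusted p = 0.290).

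MRPL3 and MRPL13 are large-subunit proteins of bacterial families, and MRPL3 lies near the centre where amino acids are joined. MRPL3 was at 62.1, 67.5 and 77.8 CPM with vehicle and 25.7, 51.7 and 75.3 CPM at 10 mg/kg (log2 fold change -0.29, SE 0.13, edgeR adjusted p = 0.485). MRPL13 was at 18.1, 21.2 and 24.98 CPM with vehicle and 0, 16.8 and 19.1 CPM at 10 mg/kg (log2 fold change -0.53, SE 0.24, edgeR adjusted p = 0.492). For each, 4 of 6 treated libraries lay below all vehicle libraries and the rest overlapped. The 0 of MRPL13 is in 10 mg/kg replicate 2, where 3 counts are worth 6.42 CPM. Without that library the log2 fold change of MRPL13 was -0.45 (edgeR adjusted p = 0.433). It moved further, to -0.365, without 10 mg/kg replicate 1, where MRPL13 was at 6.98 CPM from 27 counts. The 25.7 CPM of MRPL3 is in 10 mg/kg replicate 2, from 12 counts. Without it the log2 fold change of MRPL3 was -0.225.

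MRPS6, a protein of the small subunit's platform, was at 24.0, 27.3 and 30.0 CPM with vehicle and 8.56, 23.0 and 25.7 CPM at 10 mg/kg, with 4 treated libraries below all vehicle libraries. Its log2 fold change was -0.34 (SE 0.17, edgeR adjusted p = 0.526), and -0.405 to -0.244 with each library left out. The 8.56 CPM came from 4 counts in 10 mg/kg replicate 2. In the 30 mg/kg group MRPS6 was at 22.0, 29.5 and 40.5 CPM, a range that holds the whole vehicle range. Between the doses it had the smallest p of the 77 genes, with 5 of the 30 mg/kg libraries above all 10 mg/kg libraries, a log2 difference of 0.51 (SE 0.17) and an edgeR adjusted p of 0.969. That difference was 0.46 without 10 mg/kg replicate 2 and 0.41 without 30 mg/kg replicate 5.

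The last of the 6 were MRPS35 and MRPL23. MRPS35, a mitochondria-specific small-subunit protein, was at 37.4, 41.7 and 44.1 CPM with vehicle and 12.8, 28.4 and 49.6 CPM at 10 mg/kg, with 5 treated libraries below and 1 above all vehicle libraries. Its log2 fold change was -0.35 (SE 0.18, edgeR adjusted p = 0.555). With each library left out it was -0.54 to -0.26, and under the other settings -0.62 to -0.20. The -0.54 is without 10 mg/kg replicate 5, the library above the vehicle range (edgeR adjusted p = 0.154). The -0.26 is without 10 mg/kg replicate 1. The 12.8 CPM came from 6 counts in 10 mg/kg replicate 2. MRPL23, at the rim of the exit tunnel, was at 39.0, 52.1 and 58.6 CPM with vehicle and 34.2, 38.4 and 50.4 CPM at 10 mg/kg (log2 fold change -0.28, SE 0.15, edgeR adjusted p = 0.568). Its groups overlap, with 4 treated libraries below all vehicle libraries.

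At 30 mg/kg the smallest p belonged to MRPL22 and MRPL14, which had opposite signs. MRPL22 was at 12.9, 15.5 and 18.2 CPM with vehicle and 15.1, 17.2 and 24.9 CPM at 30 mg/kg, with 3 treated libraries above all vehicle libraries (log2 fold change 0.30, SE 0.17, edgeR adjusted p = 0.752). MRPL14, a large-subunit protein on the face that meets the small subunit, was at 18.1, 25.4 and 30.0 CPM with vehicle and 15.3, 20.4 and 24.7 CPM at 30 mg/kg, with 3 treated libraries below (log2 fold change -0.31, SE 0.17, edgeR adjusted p = 0.753). Both pairs of groups overlap.

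The other 4 of the 6 smallest had adjusted p between 0.846 and 0.864. MRPL15, of a bacterial family, had a log2 fold change of 0.27, MRPL48 of the central protuberance 0.28, the mitochondria-specific MRPL52 0.22 and MRPL11, at the base of the stalk, -0.21. Every one of them overlapped between the groups. MRPL15, MRPL48 and MRPL52 moved to 0.16, 0.17 and 0.12 without 30 mg/kg replicate 5, and MRPL11 to -0.12 without 30 mg/kg replicate 4.

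**Figure D4:**
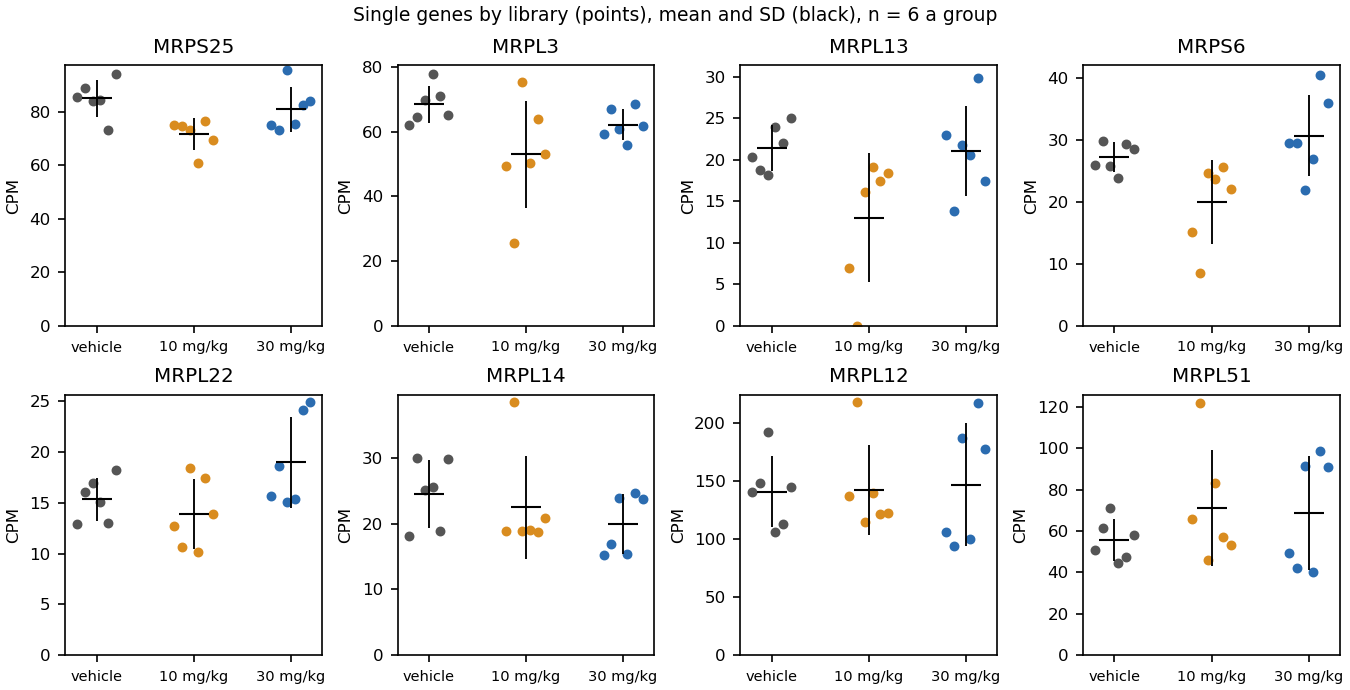
CPM of 8 genes in each library (points), with the group mean and SD (black, 6 libraries a group), on axes that start at 0. The upper row shows genes with small p at 10 mg/kg, whose treated points overlap the vehicle points, and MRPL12 and MRPL51 in the lower row split the 30 mg/kg libraries into 3 high and 3 low.

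By place in the ribosome, no class had a member that passed in any comparison. The 29 large-subunit genes of bacterial families had a median log2 fold change of -0.10 at 10 mg/kg, with 24 below 0, and of -0.01 at 30 mg/kg, with 16 below 0. The 21 mitochondria-specific large-subunit genes, MRPS30 among them, had medians of -0.05 and 0.05. Among small-subunit genes the medians were -0.03 and 0.04 for the 15 of bacterial families, and -0.11 and -0.06 for the 10 specific to mitochondria. Without 10 mg/kg replicate 2, the median of these 10 genes at 10 mg/kg was -0.03, with 6 below 0, and that of the 21 was -0.005, with 12 below 0. That of the 29 was then -0.12, with 23 below 0, and that of the 15 was -0.04, with 9 below 0.

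The stalk proteins MRPL10, MRPL11 and MRPL12 had medians of -0.08 at 10 mg/kg and -0.06 at 30 mg/kg, with smallest adjusted p of 0.871 and 0.864. The first was -0.05 without 10 mg/kg replicate 2. The 6 genes of the central protuberance, the part of the large subunit that touches the transfer RNAs, had medians of -0.09 and -0.07. The 7 genes listed here for the exit tunnel and its rim, where MRPL45 contacts the inner membrane, had medians of -0.12 and 0.03. The list was chosen and may not hold every gene of the tunnel, so counts over it depend on that choice. All 7 were above 0 at 30 mg/kg, MRPL22 by 0.30 and the others by 0.01 to 0.05, against 50.2% of all genes below 0. Scaling by library totals moved the median of all genes to -0.03 at 30 mg/kg, so values this near 0 carry no direction. At 10 mg/kg 6 of the 7 were below 0, against 51.2% of all genes. The smallest adjusted p by edgeR was 0.752 at 30 mg/kg and 0.568 at 10 mg/kg. Without 10 mg/kg replicate 2 the median of the 7 genes at 10 mg/kg was -0.07, with 7 of 7 below 0.

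Levels and fold changes are set side by side for genes with and without the promoter matches. The 29 genes with the ETS core had a median of 62.9 TPM with vehicle and the 40 without it 56.1 TPM. Their median log2 fold changes were -0.07 and -0.10 at 10 mg/kg, and 0.02 and 0.01 at 30 mg/kg. For the YY1 core the medians were 56.2 TPM in the 20 genes with it and 61.8 TPM in the 49 without, and -0.08 for both at 10 mg/kg and 0.02 for both at 30 mg/kg. These differences were not tested.

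Variation among libraries of the same group was close to that of other genes. The median SD within groups was 0.33 on the log2 CPM scale for the 77 genes and for all genes tested, and 0.25 for both without 10 mg/kg replicate 2. The steadiest were MRPS25 (0.13), MRPL38 of the central protuberance (0.14), and the small-subunit proteins MRPS2 and MRPS5 (both 0.19). The most variable were MRPS24 (1.93), MRPS33 (1.28), MRPL13 (1.24) and MRPL39 (1.20). Without 10 mg/kg replicate 2 these became 1.92, 0.30, 0.40 and 0.33, so only MRPS24 stayed high.

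The extremes of the 77 genes lay mostly in 2 libraries. Their mean log2 CPM was 5.00 to 5.20 with vehicle, 4.30 to 5.23 at 10 mg/kg and 4.99 to 5.44 at 30 mg/kg. The low end is 10 mg/kg replicate 2, without which that group spans 4.94 to 5.23, and the high end is 30 mg/kg replicate 5. Summed TPM was 5221 to 5728 with vehicle, 2992 to 6053 at 10 mg/kg (4864 to 6053 without replicate 2) and 4911 to 6436 at 30 mg/kg. The groups overlap on both scales.

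In 10 mg/kg replicate 2, 46 of the 77 genes had their lowest value of the 18 libraries, against 37.0% of all genes tested, and 14 their highest, against 32.0%. No count was found there for MRPL13, MRPL36, MRPL39 and MRPS33, at a depth where a count of 0 allows up to 6.42 CPM, for counting error only. Those genes had at least 18.1, 7.76, 11.3 and 14.5 CPM in every vehicle library. The summed TPM of MRPL over MRPS genes was 2.25 in that library and 1.504 to 1.83 in the other 17. It is also the library with the fewest counts and the highest fibroblast, endothelial, leukocyte, muscle and erythroid sums, and the part of these in its low values was not tested.

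In 30 mg/kg replicate 5, 30 of the 77 genes had their highest value, against 8.15% of all genes tested. Genes of the nuclear-encoded respiratory chain, whose products work with those the mitochondrial ribosome makes, were also highest there, for 40 of 76, and their mean log2 CPM was 6.10 against at most 5.87 in every other library. For cytoplasmic ribosomal protein genes 10 of 80 were highest there. The mean gene length weighted by counts was 4309 bases in that library, the shortest of the 18, against 4367 to 4748 in the others. Whether it has a part in the high values was not tested.

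**Figure D5:**
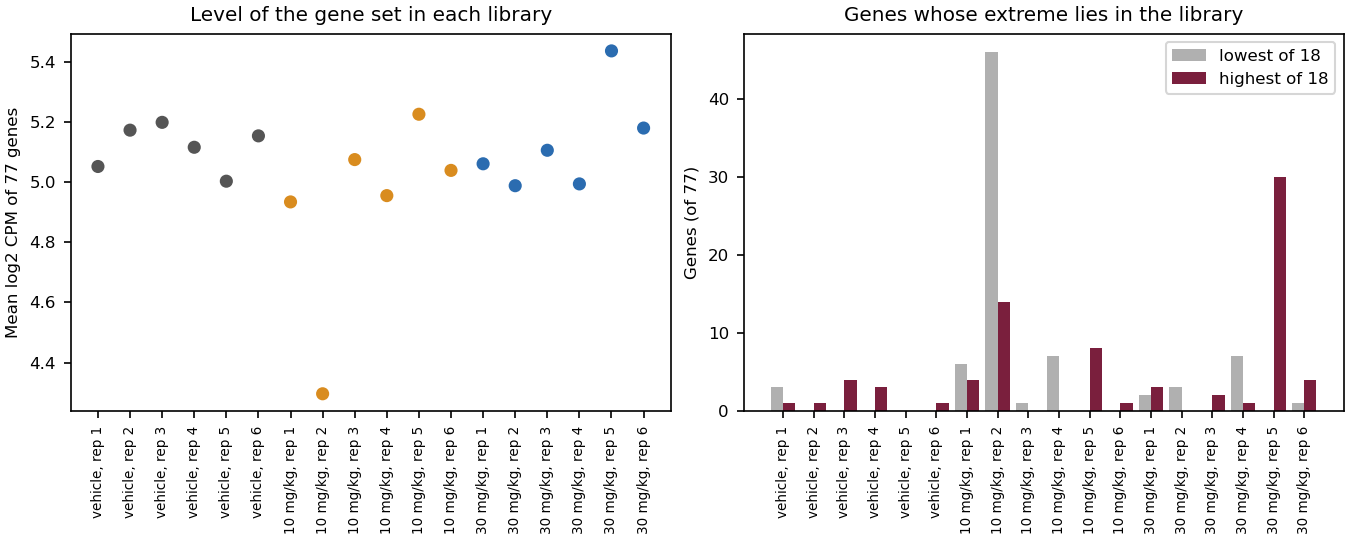
Mean log2 CPM of the 77 genes in each library (left) and the number of the 77 genes that had their lowest or highest value of 18 in that library (right, bars from 0). Points are coloured by group (grey vehicle, orange 10 mg/kg, blue 30 mg/kg); 10 mg/kg replicate 2 is lowest at 4.30 with 46 genes at their lowest, and 30 mg/kg replicate 5 is highest at 5.44 with 30 genes at their highest.

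Some of the most abundant genes were high in several libraries together, a pattern chosen after the values were seen. MRPL51 stood at 91.6, 98.6 and 91.2 CPM in 30 mg/kg replicates 3, 5 and 6, and at 49.2, 42.1 and 40.1 CPM in replicates 1, 2 and 4. MRPL12 stood at 187, 217 and 177 CPM in the first 3 and at 106, 93.8 and 99.9 CPM in the others. MRPL20 and MRPL24, both of bacterial families, were also higher in replicates 3, 5 and 6, at 59.6 to 90.1 CPM and 52.1 to 73.4 CPM, against 33.8 to 44.4 CPM and 33.7 to 36.6 CPM. Vehicle replicate 3 was the highest vehicle library for all 4 genes, and 10 mg/kg replicate 2 the highest of its group in CPM. MRPL51 stood there at 122 CPM from 57 counts. In TPM that library was the highest of its group only for MRPL12, and the lowest for MRPL24, at 75.6 TPM from 24 counts. Replicates 3, 5 and 6 also had the shortest weighted gene lengths of the 30 mg/kg group, at 4553, 4309 and 4544 bases, and vehicle replicate 3 the shortest with vehicle, at 4460, as 10 mg/kg replicate 2 was in its group, at 4367. The part of this in the pattern was not tested.

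Other genes of mitochondrial translation were taken from lists of textbook members, and 0 of them passed in any comparison by edgeR. Of all genes tested, 0.469% passed at 10 mg/kg, 0.618% at 30 mg/kg and 0.0% between the doses. With shares this low, 0 in such short lists says little. The 5 ribosome subunits named otherwise had medians of -0.03 at 10 mg/kg and 0.03 at 30 mg/kg. Of these DAP3, a GTP-binding subunit, was at 73.8 ± 3.55, 77.2 ± 3.84 and 77.3 ± 10.9 CPM, and PTCD3, a pentatricopeptide protein, at 110 ± 10.98, 92.9 ± 19.7 and 101 ± 11.4 CPM with vehicle, 10 and 30 mg/kg (SD, n = 6 each). The 26 factors that assemble the ribosome or modify its RNA had medians of -0.09 and 0.00. MTERF4, which works in assembly with the methyltransferase NSUN4, was at 49.3 ± 6.38 CPM with vehicle and, in the 10 mg/kg group, 36.3 ± 5.86 CPM (SD, n = 6 each), a log2 fold change of -0.39 (edgeR adjusted p = 0.237). RBFA, which acts on the small subunit's RNA, had a log2 fold change of -0.31 at 10 mg/kg (adjusted p = 0.466), and NOA1, a GTPase, -0.29 at 30 mg/kg (adjusted p = 0.563).

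The 21 translation factors and handlers of mitochondrial messages had medians of -0.09 at both doses. LRPPRC, which stabilises those messages, was at 270 ± 32.1, 209 ± 60.2 and 254 ± 33.6 CPM (SD, n = 6 each; log2 fold change -0.35 at 10 mg/kg, edgeR adjusted p = 0.448). The 17 mitochondrial aminoacyl-tRNA synthetases had medians of -0.13 and -0.14, with 13 below 0 at each dose, against 51.2% and 50.2% of all genes. The 12 chaperones and proteases had medians of -0.13 and 0.00.

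Of 14 regulators of mitochondrial transcription and biogenesis, 13 passed the filter and the medians were -0.06 and -0.09, the first being -0.02 without 10 mg/kg replicate 2. MYC, a transcription factor that drives ribosome production, came nearest to the threshold. It was at 279 ± 33.3 CPM with vehicle, 201 ± 20.6 CPM at 10 mg/kg and, in the 30 mg/kg group, 212 ± 35.0 CPM (SD, n = 6 each), with edgeR adjusted p of 0.0856 and 0.165. TFAM, which packs and transcribes mitochondrial DNA, had a log2 fold change of -0.49 at 10 mg/kg (adjusted p = 0.384). Genes encoded by mitochondrial DNA had 0 rows in the tables and were not analysed here.

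Against these, the 76 respiratory chain genes had medians of -0.05 at 10 mg/kg, with 46 below 0, and 0.08 at 30 mg/kg, with 57 above 0. The 80 cytoplasmic ribosomal protein genes that passed the filter had -0.17, with 69 below 0, and -0.05, with 56 below 0. Of all genes tested, 51.2% were below 0 at 10 mg/kg and 50.2% at 30 mg/kg. Without 10 mg/kg replicate 2 the first became -0.03 for the respiratory chain and -0.10 for the cytoplasmic ribosome. In that library 58 of the 80 cytoplasmic ribosomal genes and 44 of the 76 respiratory chain genes had their lowest value. The 0.08 of the respiratory chain includes 30 mg/kg replicate 5, where 40 of the 76 genes were highest, and is not given here without it. The mean log2 CPM of the 76 genes had a median of 5.70 over the 30 mg/kg libraries and 5.68 with vehicle, with overlapping ranges. Differences between the 77 genes and these lists were not tested.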

How the data were processed

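For each library the authors deposited a table of genes laid out as RSEM writes it. Per the file headers, it holds expected counts (estimated reads per gene, not scaled) and TPM, abundances the authors scaled for length, for 25343 human genes by Entrez ID. The submitters' processing notes name STAR 2.4.2a, hg19 and mm10; the quantification tool, the annotation and the handling of mouse reads: not given in the sources used here. Per the labels' protocols, libraries were made from total RNA with a stranded kit for low input.

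Symbols came from RefSeq (GRCh38.p14), 25220 by ID and 26 by transcript accession; 97 genes had none. Expected counts were rounded, filtered by filterByExpr (14074 genes), scaled by TMM and fitted over the 3 groups with edgeR 4.0.16 (robust quasi-likelihood, R 4.3.3), with Benjamini-Hochberg adjustment over all genes and a threshold of 0.05. CPM values are TMM scaled; log2 CPM has a prior count of 2. Intervals are 95% and come from the fit. The fit was tested on simulated data. Alternatives were DESeq2 1.42.0, limma 3.58.1 (voom, and trend on log2(TPM + 1)), other scalings and filters, the groups compared alone, a replicate block and each library left out. A count of 0 allows 3 counts.

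The members and lists were chosen with earlier results of these data known. Named members are the 6 with the smallest p at each dose, 3 between the doses, the 5 highest and 5 lowest by TPM with vehicle, the 4 most and least variable, and the stalk and MRPS18 genes; of each other list, the 2 with the smallest p were eligible.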

Additional observations from a re-analysis of the deposited data

Results flagged for a closer look

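Of 96 groups of 6 libraries checked (30 named genes and 2 summary values), 8 had a library far from the rest of its group by Dixon's test. Chance alone does this in about 1 of 20 unselected groups. The groups here share libraries, and some genes were chosen for a large SD or a small p in these data. That rate is thus no measure for the 8. Of the 8, 6 were in 10 mg/kg replicate 2, the library with 433981 counts. It was far above its group for MRPL12 (218 CPM), MRPL14 (38.5 CPM) and MRPL15 (66.3 CPM). It was far below for MRPL10 (21.4 CPM), MRPS23 (66.3 CPM) and the mean log2 CPM of the 77 genes (4.30). The other 2 were in 30 mg/kg replicate 5, which stood far above its group for MRPL38 (121 CPM) and MRPS34 (98.9 CPM).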

How the results depend on the processing

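None of the 77 genes passed in any of the 3 comparisons under any of the 28 alternatives. No gene named for a small p changed direction in that comparison, but choosing by p in these data favours a stable sign. Other named genes did change at 10 mg/kg without replicate 2. The stalk genes below 0 went from 3 to 2, and the MRPS18 genes below 0 from 1 to 2. Leaving out each library moved the median log2 fold change of the 77 genes. It ran from -0.10 to -0.03 (without vehicle replicate 3) at 10 mg/kg, -0.04 to 0.04 at 30 mg/kg and 0.09 to 0.19 between the doses. The other settings gave -0.23 to -0.05, -0.02 to 0.02 and 0.09 to 0.26; -0.23 and 0.26 came from the TPM scale, where all genes had medians of -0.12 and 0.09. At 30 mg/kg the sign of the median changed with library totals (-0.01), on TPM (-0.02) and without 30 mg/kg replicate 5 (-0.04).

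Counts over all genes moved more. At 10 mg/kg, 66 became 32 without a filter, 159 with DESeq2, 12 with limma-trend on TPM, 36 with the 2 groups alone, and 31 to 121 with each library left out: 42, 40 and 31 without vehicle replicate 1, 2 or 5, and 121 without 10 mg/kg replicate 2. At 30 mg/kg, 87 became 57 without a filter, 179 with DESeq2, 23 with limma-trend on TPM, 191 with the 2 groups alone, 188 without 10 mg/kg replicates 2 and 4 (chosen after seeing the data), and 61 to 182 with each library left out, 182 being without 10 mg/kg replicate 2. The cause was not tested. Between the doses the count stayed 0.

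Libraries share a replicate number without a stated pairing. Over 18 same-numbered pairs the correlation of deviations had a median of -0.04 (-0.28 to 0.22), with 3 over 0.1. With the number as a replicate block, 24 genes passed at 10 mg/kg and 60 at 30 mg/kg, with 0 of the 77 genes, whose medians were -0.09, 0.01 and 0.15. Depth limits 10 mg/kg replicate 2, where a count of 0 allows 6.42 CPM, against 0.359 to 0.868 CPM elsewhere.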
